A study of Mus musculus with 6 samples.

Results

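The miRNAs of the Dlk1-Dio3 imprinted locus, on mouse chromosome 12, were followed in whole kidney of male C57BL/6 mice aged 2 months (young) or 20 months (aged). The members were taken by name: of 54 listed mature miRNAs, 53 had probes among the 1247 mouse miRNAs of the array, and mmu-miR-299a-5p was not analysed here. The 6 samples were untreated as far as the labels say, with 3 RNA preparations per age, and a separate 1-colour Agilent miRNA array for each. C57BL/6 is an inbred laboratory strain, and no allele or treatment is given for either age. The preparations of an age were described as independent, but the labels tie none of them to an animal, and each p-value below therefore reflects variation among preparations, part of which may be technical. Whole kidney mixes many cell types, so fewer cells that make a miRNA and less of it per cell cannot be told apart.

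The Dlk1-Dio3 domain is expressed by parent of origin. The paternal chromosome expresses the protein-coding genes Dlk1, Rtl1 and Dio3, and the maternal chromosome expresses the long non-coding RNAs Meg3, Rian and Mirg together with a large set of miRNAs cut from the same transcription unit. These miRNAs are known for high levels in embryo, placenta and brain and for low levels in most adult organs. A mature miRNA finds its target mRNAs mainly through its seed, the bases near its 5′ end, and each hairpin precursor can give a mature miRNA from its 5′ arm (5p) and from its 3′ arm (3p).

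The members came from 41 hairpins, 12 of which were represented by both arms. RefSeq sequences on GRCm38.p6 matched 51 of the 54 listed names, all on the plus strand of chromosome 12 and within 171.781 kb. Their GC content ranged from 23.8% to 68.2%, with a median of 45.5%. The sequences below are those on which the results turn: the only member with signal, its precursor, and the members and other miRNAs that share bases with it or with each other. They are written 5′ to 3′. In the first set the capitals mark the seed, bases 2 to 8.
mmu-miR-494-3p: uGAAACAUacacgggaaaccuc
mmu-miR-494-5p: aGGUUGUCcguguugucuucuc
mmu-miR-539-5p: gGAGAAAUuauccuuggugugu
mmu-miR-127-3p: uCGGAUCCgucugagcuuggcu
mmu-miR-379-3p: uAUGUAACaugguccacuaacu
mmu-miR-411-3p: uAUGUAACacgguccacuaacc
mmu-miR-329-3p: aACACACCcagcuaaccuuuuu
mmu-miR-362-3p: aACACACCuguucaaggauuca

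In that set mmu-miR-379-3p and mmu-miR-411-3p have the same seed, and it was the only seed shared between the members with a sequence. The seed of mmu-miR-329-3p is that of mmu-miR-362-3p, which lies outside the locus on the X chromosome. Among the detected miRNAs from outside the locus that had a sequence, no other carried a member's seed. The hairpin of mmu-miR-494-3p lies at chr12:109715318-109715402 (GRCm38.p6, plus strand), and in the line below capitals mark the 3p arm.
Mir494: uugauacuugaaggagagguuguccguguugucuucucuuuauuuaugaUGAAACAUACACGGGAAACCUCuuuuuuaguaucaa

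Other members share runs of bases with mmu-miR-494-3p without sharing its seed. The longest run in common was 9 bases, held by mmu-miR-154-3p and mmu-miR-485-3p and covering bases 6 to 14 of mmu-miR-494-3p, in capitals here, which takes in the end of its seed.
miR-494-3p with run: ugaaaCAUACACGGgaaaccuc
miR-154-3p with run: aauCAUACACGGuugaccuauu
miR-485-3p with run: aguCAUACACGGcucuccucuc
Among 176 detected entries from outside the locus with a sequence, the longest run shared with mmu-miR-494-3p was 7 bases, in 2 of them (miR-24-2-5p and miR-350-3p). These sequences matter below because array probes are complementary to the mature miRNA, so similar miRNAs can add signal to each other's probes.

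In kidney of both ages the locus was almost without signal: mmu-miR-494-3p was detected on every array, and the other 52 members were detected on none. A miRNA counted as detected on an array where over 50% of the spots kept for 1 of its probes carried the scanner software's mark of being well above background. The members detected made up 1.89% of 53 on each of the 6 arrays. Over all miRNAs of the array, 177 to 209 were detected per array, or 14.2% to 16.8%. Passing on at least 1 array, the share was 17.8% of all miRNAs, and 15.5% passed on all 3 arrays of at least 1 age. The scanner software's own call per miRNA gave the same single member on every array.

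The labelled tissue was checked on miRNAs known for their abundance in kidney, miR-192-5p, miR-194-5p, miR-204-5p, miR-10a-5p, miR-10b-5p, miR-30a-5p and miR-196b-5p, and 7 of 7 were detected on all arrays. Of 12 markers of other organs, 6 were detected on no array: the neuronal miR-9-5p, the liver miR-122-5p, the muscle and heart miRNAs miR-133a-3p, miR-206-3p and miR-208a-3p and the islet miR-375-3p. Not all of the 12 are particular to other organs, since the list takes in miRNAs known from epithelium. The other 6 were detected on some or all arrays. Among these miR-128-3p, also known from brain, miR-202-3p, known from gonad and adrenal, and miR-7a-5p and miR-141-3p, known from pituitary and epithelium, were detected on all 6 arrays, and the muscle miR-1a-3p on 4. The neuronal miR-124-3p was detected on the 3 aged arrays and on no young array, while no further member of the locus was. The summed scaled signal of the 12 was 0.779 to 0.889 in young and 0.738 to 0.812 in aged kidney, and its part in the values of the locus was not tested.

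The lack of detection extended to miRNAs of the locus that were not listed. A further 57 array entries carry names of the locus, and 0 of 57 were detected on any array. Other clusters of miRNAs served for comparison: entries with the name stems of the large cluster in an intron of Sfmbt2, and the X-linked cluster from miR-322 to miR-542. Of 61 entries of the former, 10, 7 and 6 were detected on the young arrays and 8, 2 and 1 on the aged arrays. Of 13 entries of the latter, 3, 3 and 3 were detected at 2 months and 1, 3 and 1 at 20 months.

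**Figure D1:**
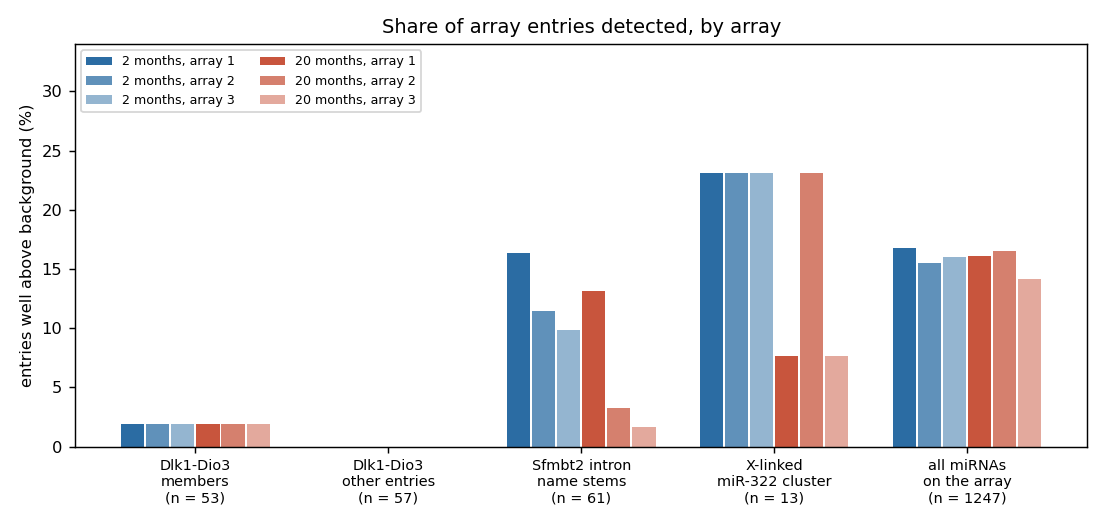
Bars give the percentage of entries well above background on each of the 6 arrays. The sets are the 53 Dlk1-Dio3 members, 57 further entries of the locus and 61 entries with name stems of the Sfmbt2 intron cluster. Then follow 13 entries of the X-linked cluster and all 1247 miRNAs. The members stay at 1.89% on every array and the further entries at 0, against 14.2% to 16.8% for all miRNAs.

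Every member had 40 spots per array, spread over 1 to 4 probes. Of 11934 spots kept for the 52 undetected members over the 6 arrays, 1 was marked as well above background, a spot of miR-376c-3p on aged array 3. That is 0.00838%, beside 0.152% of 222616 spots of the other 973 undetected miRNAs. The other 51 members had no marked spot on any array. The dimmest probe that was well above background lay at 30.3 to 38.6 intensity units, depending on the array. The negative control spots averaged 2.38 to 3.55 intensity units with an SD of 5.32 to 7.73 among spots. Intensity here is the scanner's spot value after its own background subtraction, so values below 0 occur, and it is not scaled between arrays.

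The mean spot intensity of the 52 undetected members ranged from -7.29 to 17.5 over all arrays, below that detection limit throughout. Their median was -0.54 in young and -0.54 in aged kidney. Over the other 973 undetected miRNAs the medians were -1.04 and -1.08. No undetected member (0 of 52) exceeded the brightest of the 7 negative control sequences on all 6 arrays, as 3.80% of the other undetected miRNAs did. On at least 1 array 3 members did so, 5.77% beside 14.9% of the others. These 3 were miR-539-5p, miR-341-3p on young array 2 and miR-154-5p on aged array 2. Of the 57 further entries of the locus, miR-3072-5p exceeded the same limit on all 6 arrays, or 1.75%. On at least 1 array 2 of the 57 did, or 3.51%, the other being miR-3070b-3p on 4 arrays. This comparison with the negative controls was chosen after the values had been seen. At this signal over background a low amount of these miRNAs was not detectable.

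**Figure D2:**
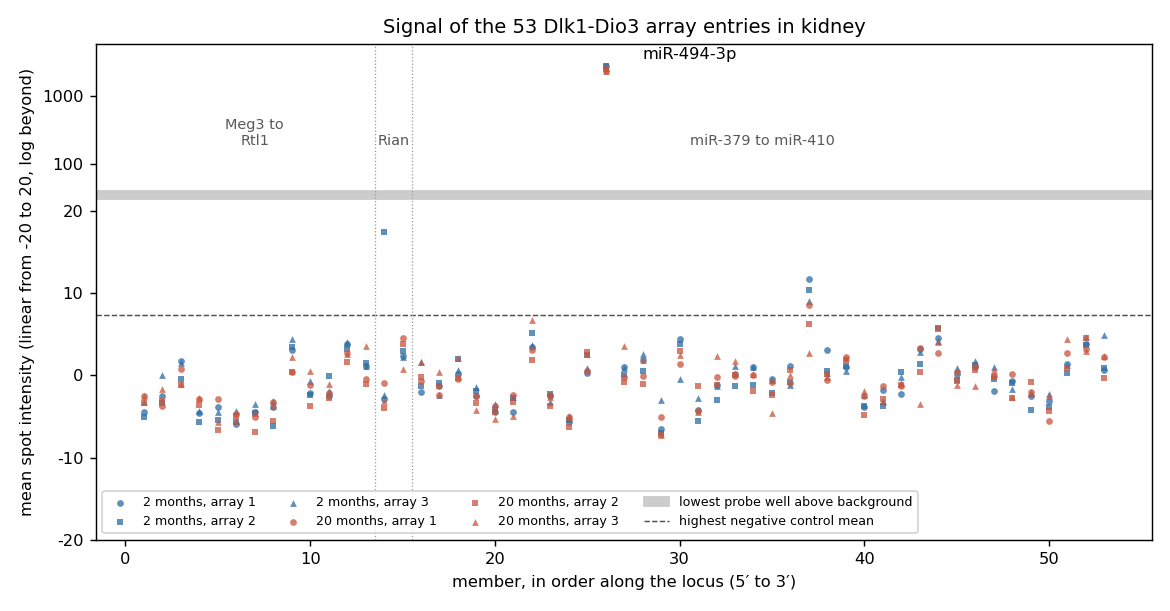
Points give the mean spot intensity of each of the 53 array members on each array, in the order of the hairpins along the locus, on an axis that is linear around 0 and logarithmic above. The grey band spans the dimmest well-detected probe of the arrays (30.3 to 38.6), the dashed line is the highest negative control mean (7.31), and miR-494-3p alone lies above the band.

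The first stretch of the locus, from Meg3 through Rtl1, held 13 of the undetected members from 9 hairpins, with means from -6.93 to 4.43. Of these, miR-127 and miR-136 are known to be transcribed antisense to Rtl1 and to cut its transcript, to which they are fully complementary. The mean intensity of miR-127-3p was 3.12, 3.46 and 4.43 on the young arrays and 0.40, 0.37 and 2.23 on the aged arrays. For miR-136-5p it was 3.79, 3.24 and 4.07 in young and 2.72, 1.65 and 2.62 in aged kidney. Both sets stood lower on the aged arrays without overlap, and all of these values were at the level of the negative controls. miR-433-3p, which has been studied in kidney fibrosis, was among the 5 lowest members with -4.48, -4.57 and -3.45 in young and -5.12, -6.93 and -4.53 in aged kidney. miR-431-5p and miR-665-3p, also of this stretch, were among those 5 too, with means of -5.34 and -4.60 in young and -5.09 and -5.09 in aged kidney.

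The next stretch, within Rian, held 2 members. miR-370-3p lay at 2.30, 2.97 and 2.22 in young and 4.47, 3.76 and 0.77 in aged kidney, so its ages overlapped. The mean of miR-341-3p was 17.5 on young array 2 and between -3.99 and -0.98 on the other 5 arrays. That single value was the highest of any undetected member, and no spot behind it was marked as well above background.

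The third and largest stretch, from miR-379 to miR-410, gave the remaining 37 undetected members, with means from -7.29 to 11.7. It holds the miR-376 family, known for RNA editing in the seed, and miR-134-5p, known for its action at dendritic spines of neurons. The highest values on most arrays came from miR-539-5p, with 11.7, 10.4 and 8.97 in young and 8.59, 6.28 and 2.71 in aged kidney. Its 6 values did not overlap between the ages, but each lay below the detection limit. On its 4 probes the means ran from 6.58 to 13.9 on young and from 0.81 to 10.3 on aged arrays.

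The other members of this stretch that ranked among the 10 highest overlapped between the ages. miR-154-5p lay at 4.54, 5.69 and 4.18 in young and 2.65, 5.63 and 4.07 in aged kidney. miR-380-3p lay at 3.46, 5.17 and 3.62 in young and 3.08, 1.80 and 6.76 in aged kidney. The lowest and highest values of miR-380-3p were thus both on aged arrays. For miR-369-3p the values were 3.80, 3.63 and 4.63 in young and 3.17, 4.54 and 2.92 in aged kidney. Its opposite arm, miR-369-5p, gave 1.39, 0.30 and 1.24 in young and 2.69, 0.86 and 4.38 in aged kidney. miR-376c-3p ranged from -0.50 to 4.44, with both ends on young arrays. The lowest of all were miR-667-3p, with group means of -5.55 and -6.56, and miR-758-3p, with -5.33 and -5.49 in young and aged kidney. miR-382-5p and miR-377-3p, both studied in kidney fibrosis or diabetic kidney disease, had means of 1.29 ± 1.53 and -0.50 ± 1.46 (SD, n = 3) in young and -0.20 ± 0.36 and 0.13 ± 0.42 in aged kidney.

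Counted over the 52 undetected members, 20 had a higher and 32 a lower mean intensity in aged kidney, with a median difference of -0.46 intensity units. Of the other 973 undetected miRNAs 540 were lower, with a median difference of -0.17. All 3 aged arrays lay below all young arrays for 4 of the 52 members, or 7.69%, and for 4.88% of all 1025 undetected miRNAs. These 4 were miR-127-3p, miR-136-5p, miR-382-5p and miR-539-5p. All aged arrays lay above all young arrays for 3 members, miR-376b-3p, miR-382-3p and miR-540-3p, or 5.77%, and for 5.07% of undetected miRNAs. The 2 arms of the miR-382 hairpin were therefore in opposite groups. Both shares lay near those of all undetected miRNAs, and no fold is given because neither age was above background.

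**Figure D3:**
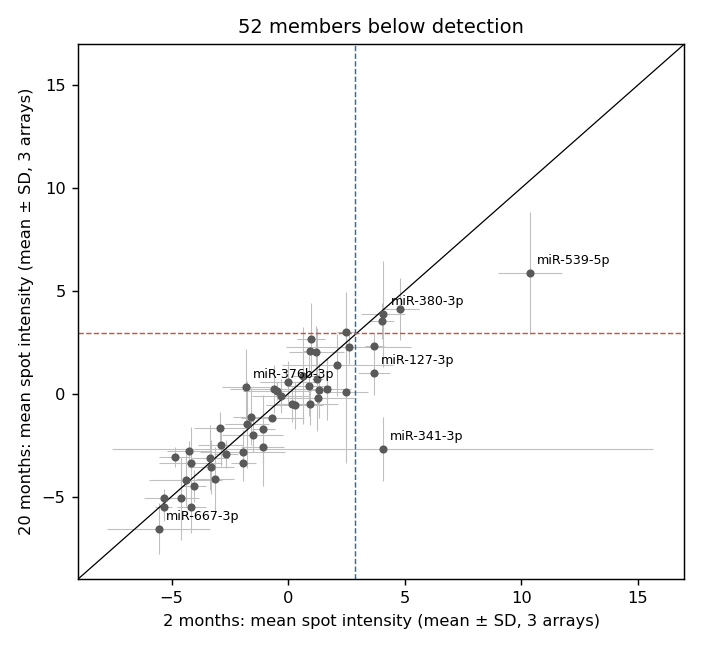
Each point is 1 of the 52 undetected members, with its mean spot intensity over the 3 young arrays on the horizontal and over the 3 aged arrays on the vertical axis, and bars of 1 SD. The line marks equality and the dashed lines the mean of the negative controls at each age. Nearly all points lie between -7 and 5 on both axes, and the wide bar of miR-341-3p comes from young array 2.

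The one member with signal, mmu-miR-494-3p, has been studied in kidney injury. It was bright on both of its probes. The first probe gave 3693, 3791 and 3416 intensity units on the young arrays and 3099, 3443 and 3142 on the aged arrays. The second gave 1896, 1847 and 1675 in young and 1653, 1750 and 1561 in aged kidney. Each of these 12 means rested on 14 to 20 kept spots, and every kept spot was marked as well above background. The 2 probes ordered the ages alike, with group means of 3633 ± 195 and 3228 ± 187 (SD, n = 3) on the first and 1806 ± 116 and 1655 ± 94.3 on the second. On both probes the values of the ages overlapped.

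To set arrays side by side, each array was divided by the 75th percentile of its probes detected on all arrays, which ranged 1.75-fold, from 1171 to 2054 intensity units. After scaling and summing over probes, the log2 level of mmu-miR-494-3p was 1.98, 2.23 and 2.10 on the young arrays. On the aged arrays it was 2.02, 1.34 and 1.87. Aged arrays 2 and 3 lay below all young arrays, and aged array 1 lay among them. The group means were 2.10 ± 0.12 in young and 1.74 ± 0.36 in aged kidney (SD, n = 3).

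The difference, aged minus young, was -0.36 ± 0.19 (log2, SE), with a 95% interval from -0.81 to 0.090. It did not pass the test (limma adjusted p = 0.270 over 193 tested miRNAs, unadjusted p = 0.0995). The exact two-sided permutation test gave p = 0.2, where 0.1 is the smallest p that 3 against 3 arrays allow. Across the same fit 15 of 193 miRNAs passed the threshold of 0.05, or 7.77%, 8 of them higher and 7 lower, and 0 of the 1 tested member. The split of the calls depended on scaling, with 18 higher and 3 lower under median scaling, 13 and 1 under quantile normalization and 10 and 0 with the authors' deposited values. Over all 193 the median difference was -0.083.

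**Figure D4:**
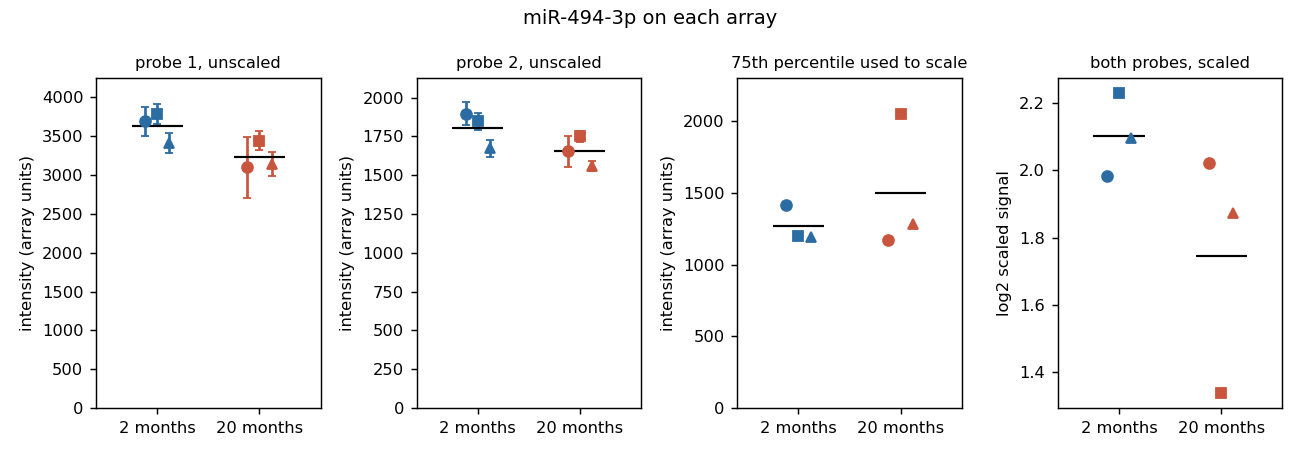
From left to right, the panels show the mean intensity of the first and of the second probe of miR-494-3p (bars are 1 SD over kept spots), the 75th percentile used to scale each array, and the scaled log2 signal of both probes together. Points are arrays (circle, square and triangle for arrays 1, 2 and 3) and lines are group means. Aged array 2 has the highest percentile, 2054, and the lowest scaled signal, 1.34, but the highest aged intensity on both probes.

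Aged array 2 decided most of the size of that difference. Relative to the young mean its scaled level was -0.76 (log2), against -0.081 and -0.23 on aged arrays 1 and 3. Without it the difference was -0.15 ± 0.11 (limma adjusted p = 0.440). Without aged array 1 it was -0.49 ± 0.17, with a 95% interval from -0.90 to -0.077 and a limma adjusted p of 0.101. The scanned slide had 2 rows of arrays: the young arrays and aged array 1 lay in row 1, and aged arrays 2 and 3 in row 2. Within row 1, which alone held both ages, and equally with the row as a block, the difference was -0.081 ± 0.21. Row and age could therefore be separated only through aged array 1.

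The authors' deposited table, on a log2 scale, gave miR-494-3p as 4.55, 4.75 and 4.60 in young and 4.60, 4.07 and 4.50 in aged kidney. The difference from these values was -0.24 ± 0.16. In that table the other 52 members stood at the lowest value of the array on each of the 6 arrays. The sign of the difference was negative in 21 of 22 alternative settings and turned to 0.055 when the percentile was taken over all probes. That scaling moved the median difference of all tested miRNAs to 0.33. Halving or doubling the floor, or taking the replicate number as a block, left the estimate at -0.36. So did dropping the detection filter, asking for detection on all 6 arrays and using the scanner software's call per miRNA. None of these settings could move the estimate, so its sign there was fixed in advance. The difference passed the threshold in 0 of the 22, with limma adjusted p from 0.101 to 0.924.

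**Figure D5:**
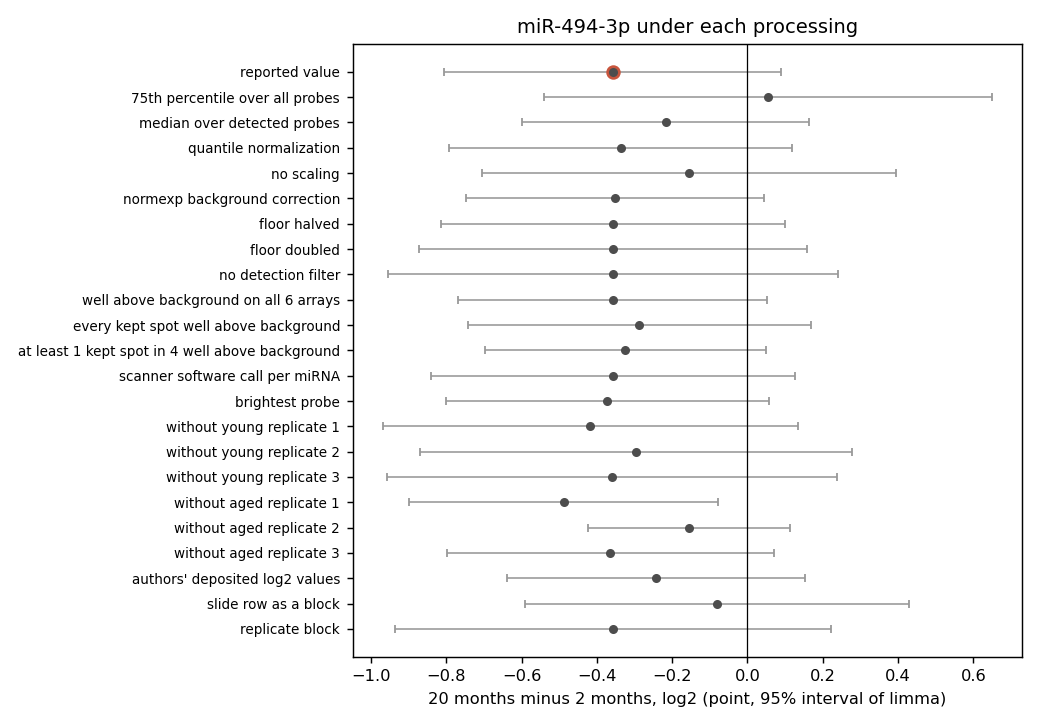
Points give the difference of miR-494-3p, aged minus young on the log2 scale, with the 95% interval of limma, for the reported processing (top) and 22 alternatives. The points run from -0.49 without aged array 1 to 0.055 with the 75th percentile over all probes.

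The neighbours of Mir494 gave no signal with it. Its opposite arm, miR-494-5p, had mean intensities of -1.44, -0.93 and -1.87 in young and -1.89, -1.46 and -0.30 in aged kidney. The next hairpin downstream, Mir679, starts 175 bases after the end of Mir494. miR-679-5p lay between -2.22 and -0.88, and miR-679-3p between -5.14 and -1.98. Upstream, Mir329 ends 1741 bases before Mir494, and miR-329-3p lay between 0.22 and 2.88. The downstream members miR-543-3p and miR-495-3p lay between -1.11 and 3.57. The members that share 9 bases with miR-494-3p were at background as well, miR-154-3p between -1.24 and 0.87 and miR-485-3p between -3.51 and 3.33.

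The 5 tested miRNAs whose scaled levels followed miR-494-3p most closely over the 6 arrays were miR-5109, miR-1224-5p, miR-188-5p, miR-3098-5p and miR-2137, with Pearson r from 0.962 to 0.986. None belongs to the locus, and all these points share their arrays and scaling. miR-5109 had no sequence here, so it was not among the 176 entries compared for shared runs. The GC content of the others, in the order named, was 66.7%, 61.9%, 54.5% and 85.7%, beside 45.5% for miR-494-3p. Whether the probes of miR-494-3p bound only that miRNA was not tested. The median r over the other tested miRNAs was 0.229, and 16 exceeded 0.9. Like miR-494-3p, each of the 5 was lowest on aged array 2. Their differences were -0.36, -0.32, -0.60, -0.41 and -0.31 (log2), with limma adjusted p from 0.186 to 0.403. Because the 5 were picked for likeness over these same arrays, the shared low array and the shared sign are no separate observation.

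The seed of miR-329-3p was present in kidney through another miRNA. That miRNA, miR-362-3p, was detected on all 6 arrays, with log2 scaled levels of -2.88, -2.88 and -2.74 in young and -2.97, -2.93 and -3.34 in aged kidney. All aged arrays lay below all young arrays, and the difference was -0.25 ± 0.13, which did not pass the test (limma adjusted p = 0.270).

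Dropping the detection filter brought all 53 members into a test but little measurement with it. With values under the floor of -5.22 (log2) set to that floor, 50 of the 53 stood at the floor on all 6 arrays, as did 78.6% of the other miRNAs. In that fit 0.481% of 1247 miRNAs passed the threshold and 0 of the 53 members did. The 50 members at the floor on all 6 arrays had no difference to test, so that outcome was fixed for them. At an unadjusted limma p under 0.05 there was 1 of the 53 members, or 1.89%, beside 54 of all 1247 miRNAs, or 4.33%. Most entries on both sides stood at the floor and could not differ, so these shares say little about the members. The median difference over the 1247 was 1.19e-15, a rounding remainder of values at the floor. Such entries also entered the adjustment. The lowest limma adjusted p of a member, 0.397, depends on them and is not a usable measure.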

How the data were processed

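Whole-kidney RNA of 6 samples (100 ng each) was Cy3-labelled and hybridised to 1-colour arrays of 52044 spots. The deposited spot values are fluorescence intensity, background-subtracted and flagged by the authors' scanner software (Feature Extraction 11.5.1.1), per the file headers. The authors also deposited a table of log2 values, which differs from the log2 totals that the software reports for each miRNA by 1 constant for each array. How that constant was set, and so the table's centring, is unknown; its scale and direction are known from this match.

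Here spots flagged as outliers were left out, intensity was averaged per probe, scaled to the 75th percentile, on its array, of the 315 probes detected on all arrays, summed per miRNA, floored at -5.22 and taken to log2. limma 3.58.1 in R 4.3.3 (lmFit, eBayes) compared the ages over 193 miRNAs detected on all 3 arrays of at least 1 age, with Benjamini-Hochberg adjustment. The number of arrays limits the precision. The fit was tried on simulated data with independent errors for each miRNA, so that trial does not cover shifts that many miRNAs share on an array. Where normexp was tried, the median spot signal replaced a mean, which the files used here lack, with an offset of 50.

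The members and lists were chosen with earlier results of these data known. The text names every member detected on at least 1 array, the 10 highest and 5 lowest members, and further entries of the locus that were detected. It also names the 5 miRNAs most like miR-494-3p over the arrays and members that share a seed. Neighbours of Mir494 and members with non-overlapping ages were named after their values were seen. The array design's build is mm9; sequences and positions are RefSeq's on GRCm38.p6, matched by name.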

Additional observations from a re-analysis of the deposited data

How the results depend on the processing

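The 1 detected member and the 0 members past the threshold stayed as reported in all settings tried, apart from 2 counts: without a detection filter 53 members were tested, and 4 members instead of 1 exceeded the highest negative control mean on at least 1 array, a measure added after the data were seen. Detection rested on the scanner software's marks, so scaling, background correction, floor, test filter and blocks could not change the detected count. The required share of marked spots and the software's call per miRNA could have changed it. With 1 member tested in every filtered fit, the 0 members past the threshold only repeat the result of miR-494-3p. The miR-494-3p difference reversed, to 0.055, with the percentile taken on all probes, and ranged from -0.49 to -0.15 with 1 array left out. The cause was not tested. The count of 15 miRNAs called was 2 without scaling, 4 with normexp, 6 without the filter, 5 with the slide row as a block, and 5 to 39 with 1 array left out (39 without aged array 1, 9 without aged array 2 or 3, and 6, 5 and 8 without young array 1, 2 or 3). With the replicate number as a block 3 were called, and miR-494-3p differed by -0.36 ± 0.21. Same-numbered arrays deviated together at r of 0.12, -0.58 and 0.31, and differently numbered arrays at r from -0.48 to 0.40. With 3 arrays per age these values cannot decide whether the numbers pair samples, and the labels state no pairing. Signal over background limits all statements on the 52 undetected members.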

Other observations

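A single unlisted entry of the locus, miR-3072-5p, was called present by the scanner software on young array 1 and aged array 1. Its mean spot intensity was 17.6, 16.0 and 13.2 on the young arrays and 18.8, 15.0 and 15.2 on the aged arrays, so the ages overlapped, and it was not well above background on any array. On aged array 1, 5 of its 35 kept spots were marked.

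miR-341-3p, a member within Rian, stood out on young array 2 on both of its probes, with means of 15.8 ± 4.90 (SD over 17 kept spots) and 18.9 ± 5.99 (20 kept spots). On the other arrays its probes lay between -5.23 and -0.80. No spot of either probe was marked as well above background on any array.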
